A study of Homo sapiens with 4 samples.

Results

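Hypoxia response and glycolysis genes were followed in KM-H2 cells whose CIITA-BX648577 fusion transcript was targeted by RNA interference. The 36 genes were chosen by name as components, targets and regulators of the response to low oxygen and of the glycolytic pathway. Earlier results of these data were known when they were chosen, so comparisons of the list with all genes are descriptions. Each was read at its brightest single-gene probe set, meaning the probe set with the highest mean log2(intensity + 16) among those to which the platform annotation gives 1 gene. Of the 36 genes, 35 had such a probe set, out of 19775 genes named in this way on the array, and CA9, which encodes a carbonic anhydrase of the cell surface, was not analysed here. Of the 35, 34 passed a filter on dim probe sets (a mean log2 value of at least 4.60, an intensity of 8.26) and entered the test over 12922 genes. ADM, which encodes the vasodilator peptide adrenomedullin, was the gene that did not pass, with intensities of 9.41 and 6.61 in knockdown and 8.43 and 7.08 in control.

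KM-H2 is an established Hodgkin lymphoma cell line that carries a fusion of CIITA, a transcriptional coactivator of HLA class II genes, with the transcript BX648577. The knockdown group (2 arrays) was KM-H2 transduced with a lentiviral pGIPZ vector expressing a short hairpin RNA named for FLJ27352, directed at exon 2 of BX648577 within the fusion. The control group (2 arrays) was KM-H2 transduced with a non-silencing control, and both groups were grown under standard conditions. A single hairpin was used in a single line, and the labels do not say whether replicates came from separate cultures, so p-values measure only the spread between these arrays, which may be technical.

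Cells sense oxygen through hypoxia-inducible factor (HIF). Its alpha subunit HIF1A is hydroxylated by prolyl hydroxylases of the EGLN family when oxygen is present and is then marked for destruction by the VHL ubiquitin ligase complex. When oxygen is short, HIF1A escapes this step, pairs with ARNT and binds DNA at hypoxia response elements, raising genes of glucose uptake, glycolysis, mitophagy and angiogenesis. Tumour cells in culture often transcribe many of these genes with oxygen present.

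The deposited values are single-colour array intensities on a linear scale, and levels below are intensities. The array means lay between 53.3 and 54.6 and the array medians between 8.12 and 9.28. PIERCE2, the gene to which FLJ27352 corresponds by general knowledge, read 621 and 590 in knockdown and 880 and 947 in control, without overlap. Its log2 fold change was -0.58, with limma adjusted p-values of 0.252 and 9.74e-05 in the common-prior and intensity-trend fits defined below. CIITA, the other part of the fusion, read 60.7 and 53.6 in knockdown and 59.6 and 65.1 in control, so its groups overlapped. Its log2 fold change was -0.10, with adjusted p-values of 0.702 and 0.718 in the same fits. The Hodgkin marker TNFRSF8, which encodes CD30, read 134 and 115 in knockdown and 110 and 115 in control, and all 6 Hodgkin markers passed the filter. Other markers of that list differed between the groups in both directions. CD70 gave 0.32 and FSCN1 gave -0.32 (log2 fold change), both without overlap, with adjusted p-values of 0.0320 and 0.0162 in the intensity-trend fit defined below and 0.275 and 0.276 in the common-prior fit. Of B cell genes that Hodgkin cells usually lose, CD79B read between 7.83 and 10.4 on the 4 arrays and MS4A1 between 6.25 and 10.3. CD79A kept a signal, at 34.7 and 32.8 in knockdown and 37.9 and 32.7 in control. Summed marker intensities of other cells were 280 and 242 in knockdown and 206 and 195 in control for T cells, where CD3D gave most of the signal, and 98.9 and 97.0 against 126 and 138 for fibroblasts. CD3D gave 0.32 and the fibroblast marker COL1A2 gave -0.47 (log2 fold change), both without overlap. Their limma adjusted p-values were 0.04985 and 0.0405 in the intensity-trend fit and 0.288 and 0.252 in the common-prior fit. No other tested marker of T cells or fibroblasts passed either fit. For myeloid cells the sums were 116 and 118 in knockdown and 117 and 122 in control, and for epithelial cells 36.5 and 30.6 against 25.3 and 38.6. The part of these markers in the results below was not tested.

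In the comparison of knockdown with control, genes of glucose entry, mitochondrial HIF targets and other HIF targets leaned lower, and the enzymes of glycolysis did not lean with them. How far they leaned depended on control replicate 2, since without it the median log2 fold changes of these 3 groups were -0.0137, -0.16 and -0.0963, against -0.22, -0.28 and -0.24 with all arrays. The list as a whole had a median log2 fold change, knockdown minus control, of -0.14 over its 34 tested members, beside -0.01 over all genes tested, with 23 members below 0 and 11 above. Over all genes tested 52.5% lay below 0. No member passed the threshold of 0.05 on the adjusted p of limma when every gene shared 1 prior variance (the common-prior fit). That fit called 2 of 12922 genes, or 0.0155%. At an unadjusted p below 0.05 it had 6 of the 34 members, beside 14.1% of all genes tested. A second limma fit let the prior variance follow intensity and is called the intensity-trend fit. It called 5 members, 4 lower (BNIP3, PDK1, PFKFB3 and INSIG2) and 1 higher (PKM), beside 2.99% of all genes. Its share of all genes was 1.4% lower and 1.59% higher.

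Both knockdown arrays lay below both control arrays at 14 members and above both at 4, and the groups overlapped at 16. Over all genes tested the shares were 24.5% below and 22.7% above. The controls differed from each other in these genes, and most results below depend on which control the knockdown is set against. The median of the knockdown mean minus control replicate 1 was -0.00 on the log2 scale over the 34 members, and that of the knockdown mean minus control replicate 2 was -0.22. Over all genes tested the same medians were -0.02 and -0.00.

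**Figure D1:**
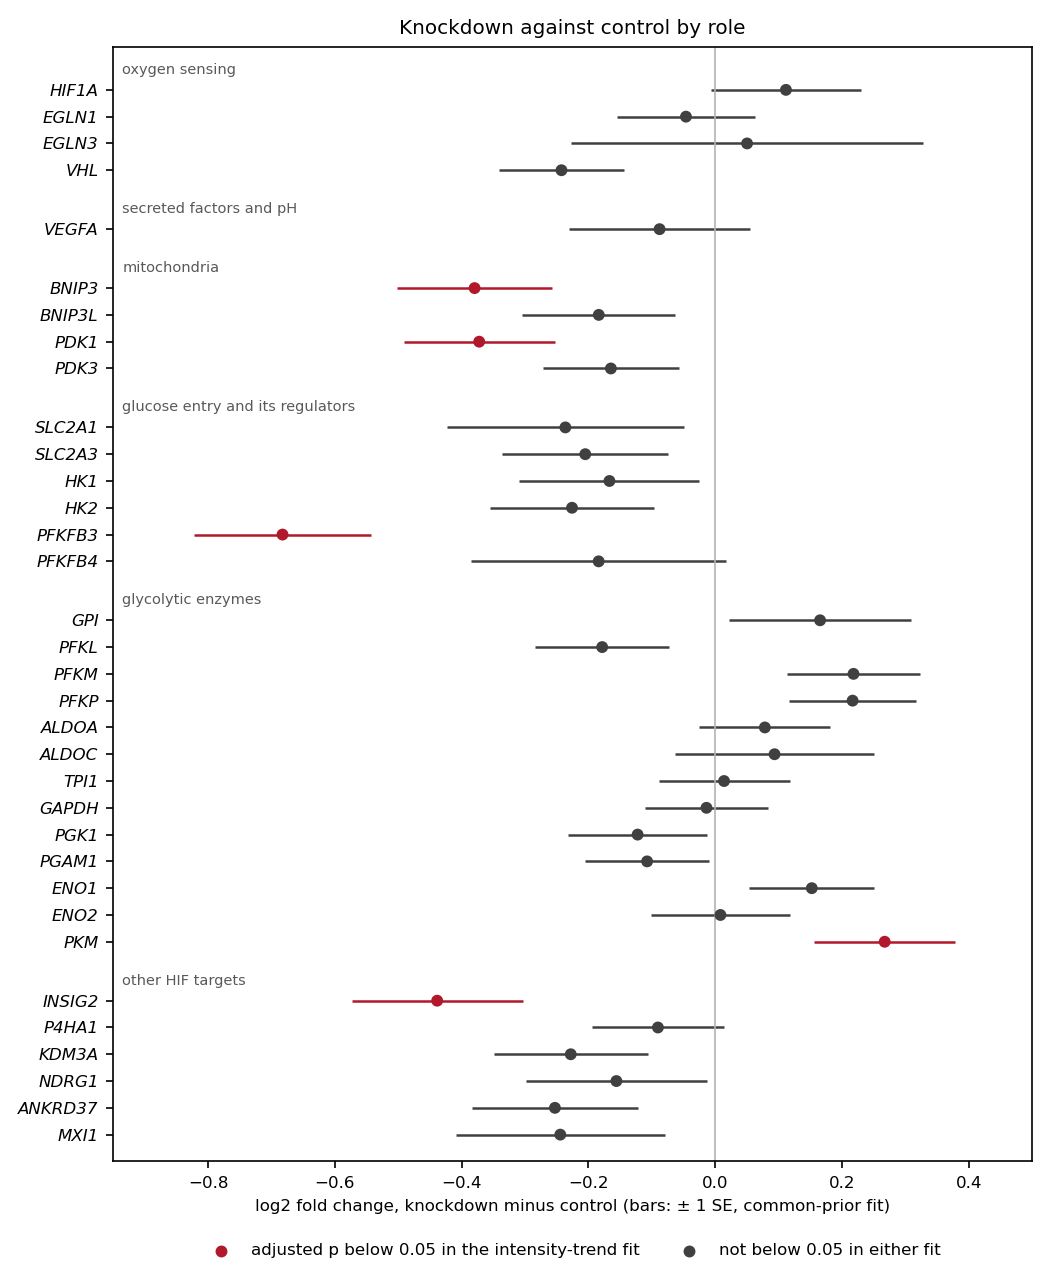
Log2 fold change, knockdown minus control, of the 34 tested members grouped by role, with bars of 1 SE from the common-prior fit (2 arrays per group). Members of the mitochondrial, glucose entry and other HIF target groups all sit below 0, while 9 of 13 glycolytic enzymes sit above it, and the 5 members in red passed the intensity-trend fit.

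The core of the hypoxia response element is ACGTG or GCGTG. Promoters of the 5 members that passed the intensity-trend fit are shown as a description, and the common-prior fit called none of these genes. Sequences are RefSeq promoter windows of GRCh38.p14, written 5′ to 3′ on the gene's strand, from 250 bases before the annotated start to 30 bases after it. Capitals mark ACGTG or GCGTG on either strand, so CACGT and CACGC are the same motifs read from the other strand, and CACGTG counts as 2 overlapping matches. For PDK1, PFKFB3 and INSIG2, which have 2 windows each in the table, the window with more matches is printed, a choice made after the matches were counted. The windows lie at chr10:131981894-131982173 (minus strand) for BNIP3, chr2:172555840-172556119 (plus strand) for PDK1, chr10:6202682-6202961 (plus strand) for PFKFB3, chr2:118088300-118088579 (plus strand) for INSIG2 and chr15:72231161-72231440 (minus strand) for PKM.
BNIP3: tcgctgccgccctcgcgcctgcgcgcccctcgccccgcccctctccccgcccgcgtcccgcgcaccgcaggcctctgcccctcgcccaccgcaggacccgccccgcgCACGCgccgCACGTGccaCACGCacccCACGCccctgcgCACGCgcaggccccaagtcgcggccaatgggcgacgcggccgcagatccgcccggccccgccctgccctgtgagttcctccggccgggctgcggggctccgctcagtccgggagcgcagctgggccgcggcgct
PDK1: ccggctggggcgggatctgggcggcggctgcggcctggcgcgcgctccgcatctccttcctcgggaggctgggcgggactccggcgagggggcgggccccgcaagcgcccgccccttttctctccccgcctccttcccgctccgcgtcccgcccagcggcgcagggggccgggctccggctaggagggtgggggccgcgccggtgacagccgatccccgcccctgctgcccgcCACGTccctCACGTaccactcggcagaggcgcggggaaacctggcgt
PFKFB3: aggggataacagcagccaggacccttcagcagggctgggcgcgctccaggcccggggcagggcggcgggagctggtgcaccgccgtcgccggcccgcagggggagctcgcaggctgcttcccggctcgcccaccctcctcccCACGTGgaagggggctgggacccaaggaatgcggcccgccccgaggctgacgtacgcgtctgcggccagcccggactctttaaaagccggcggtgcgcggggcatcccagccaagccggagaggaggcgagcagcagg
INSIG2: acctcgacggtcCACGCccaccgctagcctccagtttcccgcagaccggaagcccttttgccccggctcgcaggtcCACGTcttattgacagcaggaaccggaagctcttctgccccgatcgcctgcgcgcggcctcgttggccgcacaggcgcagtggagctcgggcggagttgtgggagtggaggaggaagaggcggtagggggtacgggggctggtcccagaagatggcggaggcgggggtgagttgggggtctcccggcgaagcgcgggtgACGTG
PKM: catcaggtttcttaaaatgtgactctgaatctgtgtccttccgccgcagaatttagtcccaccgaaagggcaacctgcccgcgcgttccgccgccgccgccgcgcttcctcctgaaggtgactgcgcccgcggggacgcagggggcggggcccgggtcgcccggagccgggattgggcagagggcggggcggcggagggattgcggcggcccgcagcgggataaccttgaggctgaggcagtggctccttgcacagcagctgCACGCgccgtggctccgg
The BNIP3 window held 6 matches, 2 of them overlapping, the PDK1 window 2, the PFKFB3 window 2 that overlap, the INSIG2 window 3 and the PKM window 1. Of the 35 members with a probe set, 30 matched the promoter table, with 56 windows, and 38 of these windows (67.9%) held at least 1 match. Over all 35116 windows of this length in the table the share was 46.3%. The list was chosen by name to hold HIF targets, so these 2 shares are not a test. A match is a description of these letters and shows no binding.

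**Figure D2:**
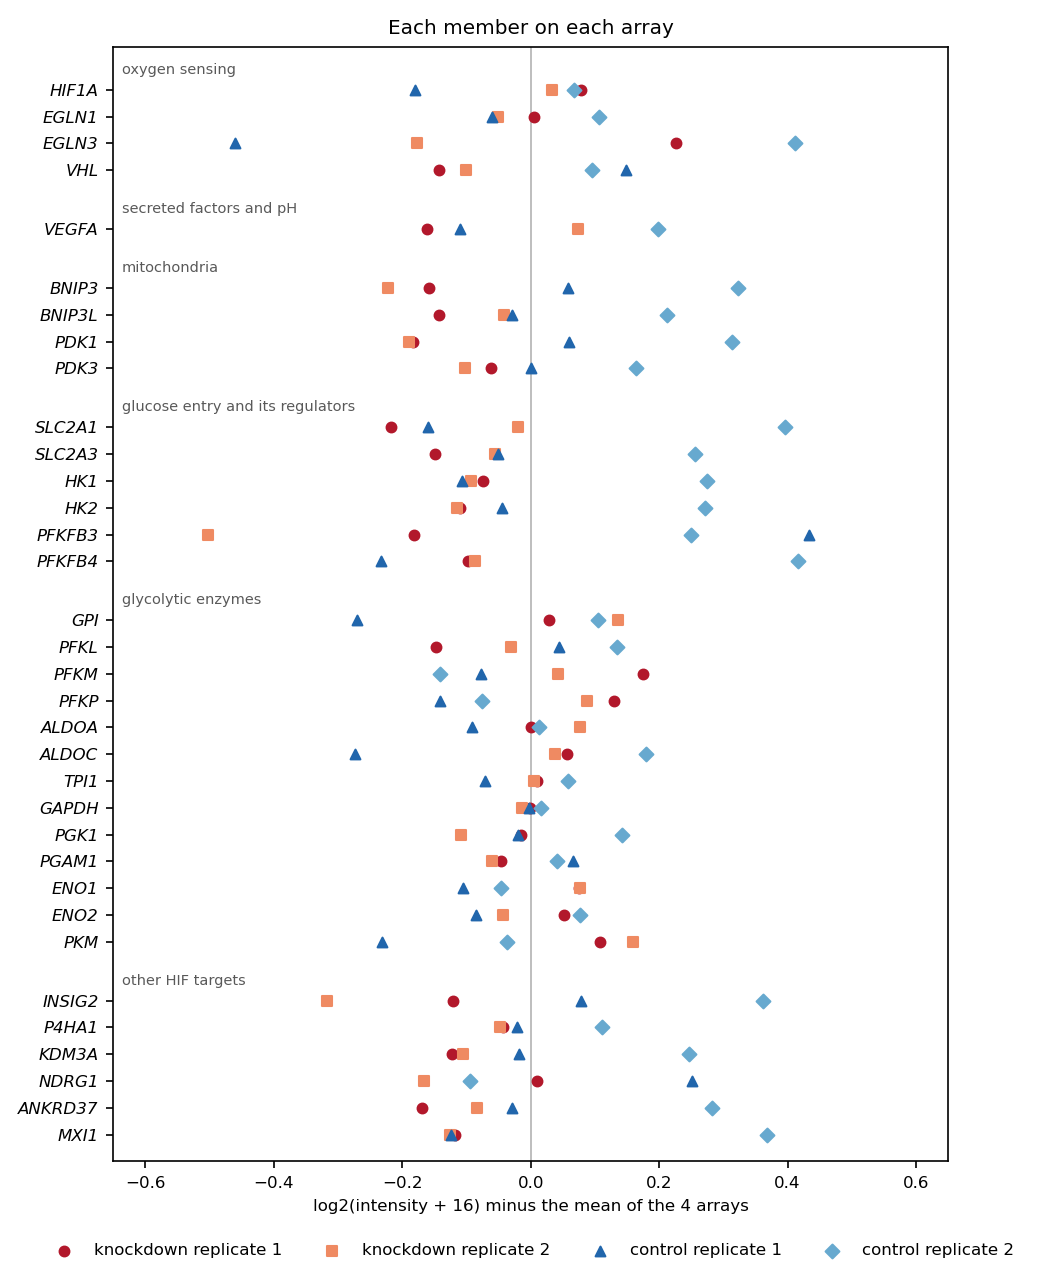
Log2(intensity + 16) of each tested member on each of the 4 arrays, as the difference from that member's mean over the arrays, grouped by role, with circles and squares for knockdown and triangles and diamonds for control. Control replicate 2 is the highest of the 4 arrays at 23 of the 34 members, and the knockdown arrays usually lie close together.

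The oxygen sensing genes did not lean one way. HIF1A, the oxygen-regulated subunit itself, read 390 and 377 in knockdown and 323 and 387 in control, so the groups overlapped, with a log2 difference of 0.11 (SE 0.12, adjusted p = 0.70). EGLN1, the main prolyl hydroxylase that marks HIF1A for destruction, read 609 and 585 in knockdown and 581 and 655 in control (-0.05, SE 0.11). Here too the groups overlapped, and control replicate 2 was the highest array. EGLN3, a prolyl hydroxylase that is itself a HIF target, read 16.8 and 8.81 in knockdown and 4.37 and 21.3 in control. These dim values spread more within each group than between the groups. VHL, the substrate-binding part of the ubiquitin ligase, was dim as well, at 8.80 and 9.53 in knockdown and 14.3 and 13.2 in control (-0.24, SE 0.10, adjusted p = 0.345). The VHL groups did not overlap, and its second probe set lay below the filter, at 5.87 and 5.58 in knockdown and 10.1 and 2.46 in control.

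VEGFA, the angiogenic growth factor, was the only tested member among the secreted factors. It read 131 and 157 in knockdown and 136 and 172 in control, with a log2 difference of -0.09 (SE 0.14, adjusted p = 0.817). The groups overlapped, and its other probe sets above the filter gave 0.04 and 0.20.

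All 4 mitochondrial members had lower values in both knockdown arrays than in either control array, with a median log2 fold change of -0.28. With the mean of all probe sets of each gene the median was -0.13, with 3 of 4 below 0. BNIP3, a receptor of the outer mitochondrial membrane that drives mitophagy, read 279 and 266 in knockdown and 326 and 396 in control. Its log2 fold change was -0.38 (SE 0.12), and its adjusted p was 0.279 (common-prior fit) and 0.0260 (intensity-trend fit). Both controls exceeded both knockdowns, and control replicate 2 stood higher than control replicate 1 by 0.26 on the log2 scale. At the other BNIP3 probe set the values were 89.6 and 86.0 in knockdown and 83.2 and 135 in control, so only control replicate 2 stood out there. BNIP3L, the close relative of BNIP3 also called NIX, read 338 and 364 in knockdown and 367 and 437 in control (-0.18, SE 0.12, adjusted p = 0.523).

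PDK1 and PDK3 encode kinases that switch off pyruvate dehydrogenase and so keep pyruvate out of the citrate cycle. PDK1 read 183 and 182 in knockdown and 219 and 264 in control, a log2 fold change of -0.37 (SE 0.12), and its adjusted p was 0.278 (common-prior fit) and 0.0349 (intensity-trend fit). The PDK1 groups did not overlap. A dimmer PDK1 probe set read 21.1 and 24.4 in knockdown and 25.3 and 16.9 in control (0.07) and did not show the difference, and the mean of all PDK1 probe sets gave -0.11. PDK3 read 141 and 137 in knockdown and 148 and 168 in control (-0.16, SE 0.11). All 4 other PDK3 probe sets above the filter gave positive values, from 0.08 to 0.24, and at each of them both knockdowns lay above both controls. The direction of PDK3 therefore depended on the probe set, and none of its probe sets passed either fit (adjusted p of at least 0.281).

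Genes of glucose entry and its regulators gave 6 of 6 log2 fold changes below 0, with a median of -0.22. Without control replicate 2 the median was -0.0137, with 3 above 0 and 3 below, and without control replicate 1 it was -0.45. PFKFB3 makes fructose 2,6-bisphosphate, the strongest activator of phosphofructokinase. It read 25.7 and 17.4 in knockdown and 47.9 and 40.3 in control, a log2 fold change of -0.68 (SE 0.14), and its adjusted p was 0.252 (common-prior fit) and 0.0177 (intensity-trend fit). This was the most negative value among the tested members, and it differed from the rest of its group in that control replicate 1, not control replicate 2, was the highest array. PFKFB3 had 1 probe set.

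The 5 other genes of glucose entry each had their highest value in control replicate 2. HK2, the inducible hexokinase that traps glucose in the cell, read 514 and 512 in knockdown and 538 and 674 in control (-0.23, SE 0.13, adjusted p = 0.474). HK1, the constitutive hexokinase, read 406 and 401 in knockdown and 397 and 522 in control (-0.17, SE 0.14). For HK1 the knockdowns and control replicate 1 lay close together, and control replicate 2 stood apart. SLC2A3, the high-affinity glucose transporter GLUT3, read 112 and 121 in knockdown and 121 and 154 in control (-0.21). Its other probe sets above the filter gave 0.0359 and 0.0963, the second with both knockdowns above both controls, and the mean of all gave -0.0243. SLC2A1, the transporter GLUT1, was dim at 22.5 and 28.1 in knockdown and 24.01 and 42.9 in control (-0.24). PFKFB4, a relative of PFKFB3 induced by hypoxia, read 71.4 and 72.1 in knockdown and 63.6 and 109 in control (-0.18). In PFKFB4 the knockdowns lay between controls that differed by 0.65 on the log2 scale.

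The 13 glycolytic enzymes had a median log2 fold change of 0.08, with 9 above 0 and 4 below. Without control replicate 1 the median was -0.02, with 5 above 0 and 8 below. PKM, pyruvate kinase of the last step, read 1091 and 1131 in knockdown and 859 and 985 in control. Its log2 fold change was 0.27 (SE 0.11), and its adjusted p was 0.352 (common-prior fit) and 0.0373 (intensity-trend fit), and the groups did not overlap. Its dimmer probe set read 42.5 and 47.1 in knockdown and 45.4 and 52.1 in control (-0.09), and the mean of both probe sets gave 0.0885.

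The subunits of phosphofructokinase, which commits sugar to glycolysis, did not move as one. PFKP, the platelet-type subunit, read 806 and 783 in knockdown and 666 and 697 in control (0.22, SE 0.10, adjusted p = 0.383). PFKM, the muscle-type subunit, read 350 and 318 in knockdown and 291 and 278 in control (0.22, SE 0.11, adjusted p = 0.403). In both genes the knockdowns lay above both controls. PFKL, the liver-type subunit, read 90.5 and 99.5 in knockdown and 106 and 113 in control (-0.18, SE 0.11), and its other probe set gave 0.01.

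ENO1, the enolase of most tissues, read 2358 and 2359 in knockdown and 2077 and 2165 in control (0.15, SE 0.10, adjusted p = 0.519). Its 3 other probe sets above the filter were also positive, from 0.02 to 0.35, so ENO1 was among the 5 members with several probe sets whose signs all matched. GPI, which converts glucose 6-phosphate to fructose 6-phosphate, read 387 and 418 in knockdown and 311 and 409 in control (0.17, SE 0.14). ALDOC, an aldolase that is a HIF target, read 183 and 181 in knockdown and 143 and 201 in control (0.09), with the knockdowns between the controls.

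Several steps of the pathway were nearly level. GAPDH, the glyceraldehyde 3-phosphate dehydrogenase often used as a housekeeping standard, read 3819 and 3787 in knockdown and 3813 and 3866 in control (-0.01, SE 0.10). TPI1, triosephosphate isomerase, read 1034 and 1031 in knockdown and 977 and 1069 in control (0.01). ALDOA, the aldolase of most tissues, read 1316 and 1388 in knockdown and 1233 and 1327 in control (0.08). Groups overlapped in all of these. One other ALDOA probe set did differ, at 422 and 401 in knockdown and 307 and 359 in control (0.30), with both knockdowns above both controls. Another TPI1 probe set above the filter read 925 and 852 in knockdown and 935 and 970 in control (-0.10). There both knockdowns lay below both controls. PGAM1, a phosphoglycerate mutase, read 1376 and 1363 in knockdown and 1490 and 1464 in control (-0.11, SE 0.10, adjusted p = 0.649). The PGAM1 groups did not overlap, with both knockdowns below both controls. ENO2, the neuronal enolase, read 110 and 102 in knockdown and 99.0 and 112 in control (0.01).

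PGK1, phosphoglycerate kinase and a classical HIF target, had 6 probe sets above the filter that disagreed by more than any other member's, with log2 fold changes between -0.35 and 0.37. The brightest read 1587 and 1486 in knockdown and 1580 and 1771 in control (-0.12, SE 0.11, adjusted p = 0.644). When every probe set was tested on its own, a choice made after seeing the data, one read 553 and 536 in knockdown and 699 and 702 in control (-0.35), with an adjusted p of 0.00806 by intensity trend. In the same fit another read 823 and 808 in knockdown and 572 and 691 in control (0.37) and passed in the opposite direction (adjusted p = 0.0198). A further probe set read 576 and 540 in knockdown and 405 and 526 in control (0.26, adjusted p = 0.144). No PGK1 level can therefore be called higher or lower from these arrays, and which transcripts each probe set reads was not examined.

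**Figure D3:**
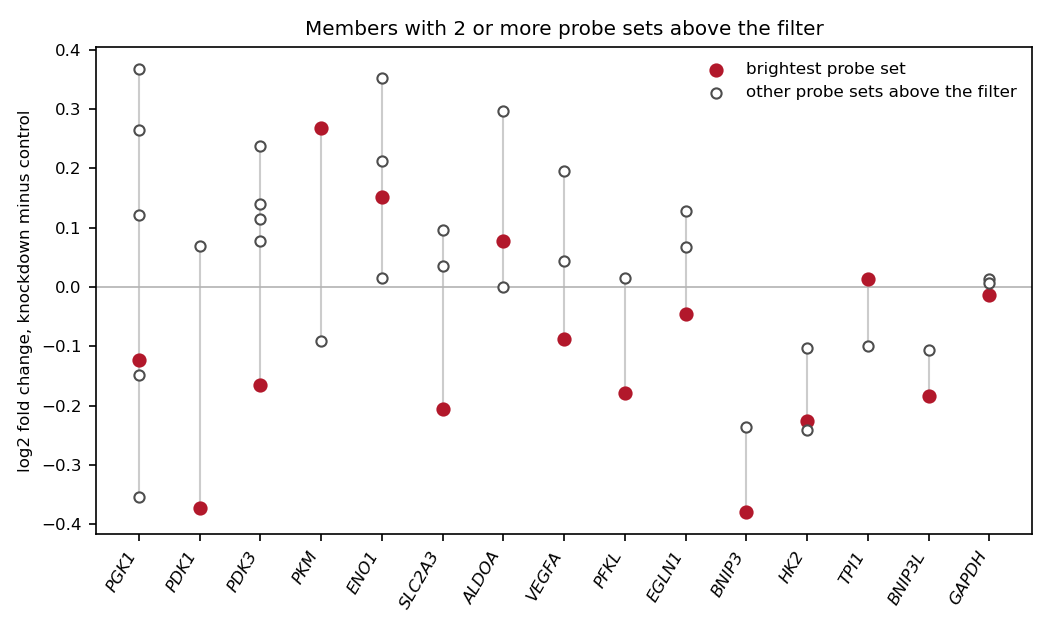
Log2 fold change, knockdown minus control, of every probe set above the filter for the 15 members with 2 or more of them, ordered by span, filled circles marking the brightest. Probe sets of 10 of the 15 members fall on both sides of 0, and PGK1 spans from -0.35 to 0.37.

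Disagreement between probe sets was common. Of 30 other probe sets above the filter, 11 had the sign of the brightest probe set of their gene and 19 the opposite sign. With the mean of all probe sets of a gene in place of the brightest, the median of the list was -0.03, with 20 of 34 members below 0. In the test of every probe set, the common-prior fit called 0 of 64 member probe sets (8 at an unadjusted p below 0.05) beside 0.00883% of all, and the intensity-trend fit called 7 beside 2.34%.

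The other HIF targets gave 6 of 6 values below 0, with a median of -0.24. The median was -0.38 without control replicate 1 and -0.0963 without control replicate 2, each with 5 of 6 below 0. INSIG2, an endoplasmic reticulum protein that restrains sterol synthesis, read 105 and 90.0 in knockdown and 123 and 154 in control. Its log2 fold change was -0.44 (SE 0.14), and its adjusted p was 0.273 (common-prior fit) and 0.0373 (intensity-trend fit). The groups did not overlap. KDM3A, a histone H3 lysine 9 demethylase induced by hypoxia, read 267 and 270 in knockdown and 288 and 349 in control (-0.23, SE 0.12, adjusted p = 0.444). ANKRD37, a small ankyrin repeat protein, read 70.3 and 75.6 in knockdown and 79.1 and 102 in control (-0.25, SE 0.13). In KDM3A and ANKRD37 both controls exceeded both knockdowns, by more for control replicate 2.

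MXI1, an antagonist of MYC, read 263 and 261 in knockdown and 262 and 374 in control (-0.24, SE 0.17). Its fold change came from control replicate 2 alone, since without that array it was 0.00. P4HA1, a collagen prolyl hydroxylase, read 207 and 206 in knockdown and 210 and 232 in control (-0.09). NDRG1, a stress-response gene, was dim at 12.0 and 8.76 in knockdown and 17.1 and 10.0 in control (-0.16, SE 0.14), and unlike its group it was higher in control replicate 1.

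**Figure D4:**
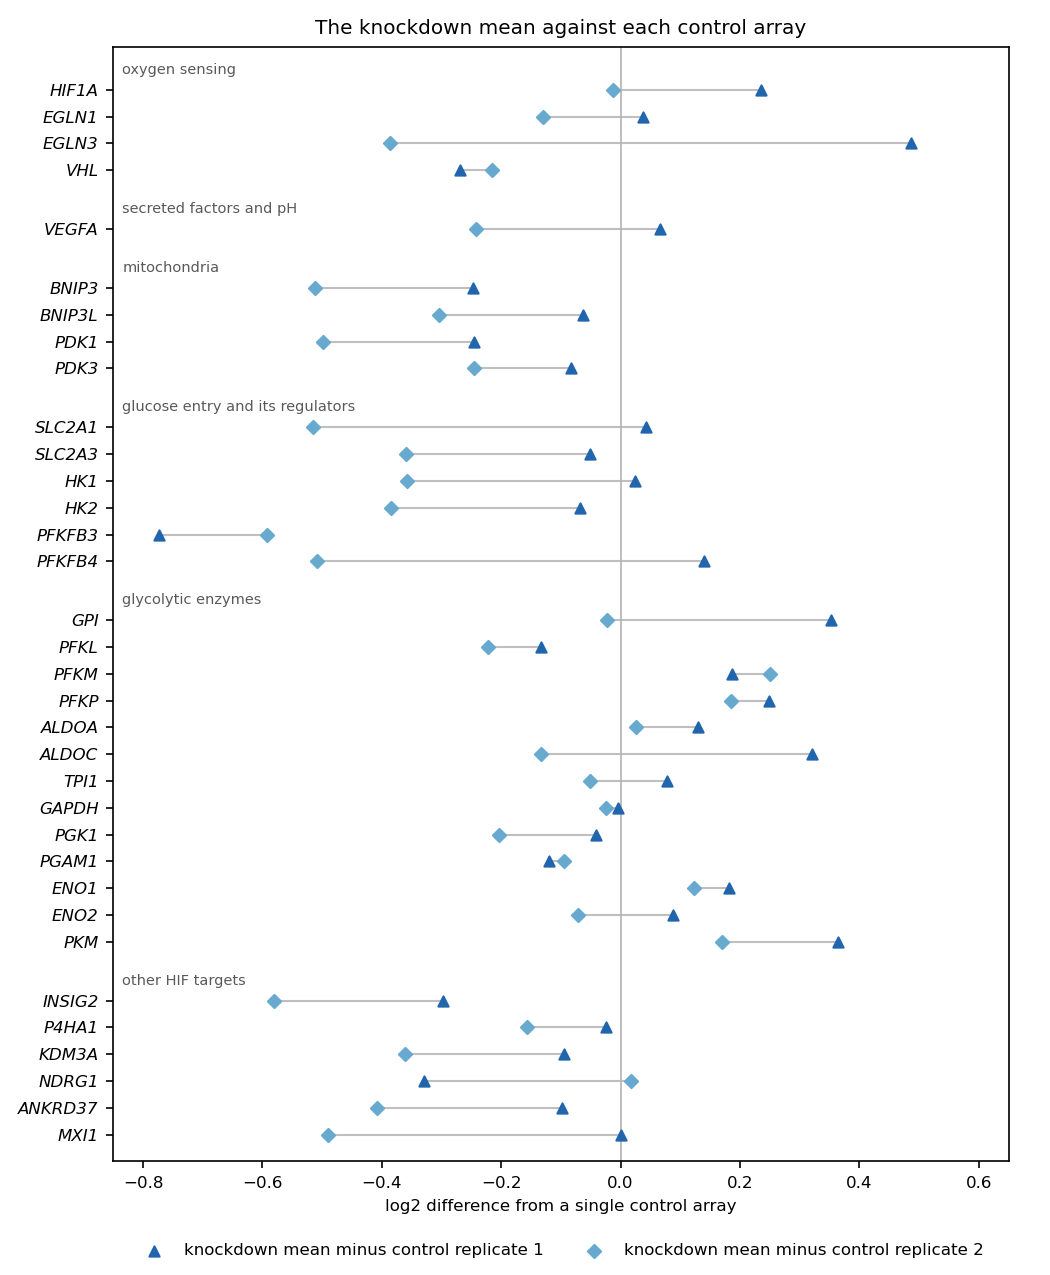
The mean of the 2 knockdown arrays minus each single control array, on the log2 scale, for the 34 tested members grouped by role, triangles for control replicate 1 and diamonds for control replicate 2. The differences from control replicate 1 fall on both sides of 0 (median -0.00), with role medians such as 0.13 for glycolytic enzymes and -0.16 for mitochondrial members. Those from control replicate 2 lie mostly below 0 (median -0.22).

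Between the 2 controls the members leaned to one side, and between the 2 knockdowns their median lay near 0. Control replicate 1 minus control replicate 2 had a median of -0.22 on the log2 scale over the 34 members, beside 0.02 over all genes tested. Control replicate 2 was the higher at 29 of 34, beside 46.8% of all genes tested. Knockdown replicate 1 minus knockdown replicate 2 had a median of 0.01, beside 0.03 over all genes. Control replicate 2 exceeded control replicate 1 by more than 0.2 at 17 of the 34 members (50%), beside 15.2% of all genes tested. Among the 7889 genes above the 75th percentile of brightness the share was 9.19%, and among the 31 members in that range it was 51.6%. The step of 0.2 and its use in this range were added after seeing the data. Control replicate 2 was the highest of the 4 arrays at 23 members, beside 26% of all genes. Control replicate 2 exceeded control replicate 1 by more than 0.5 at 3 members (EGLN3, SLC2A1 and PFKFB4), beside 1.9% of all genes. In either direction, 437 of all 12922 genes tested had a gap above 0.5 between the controls and 292 between the knockdowns. One array against another has no test, and whether the gap comes from the cultures or from later steps cannot be told apart.

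The gap was unequal between roles. Its median was -0.35 for glucose entry, -0.27 for the other HIF targets, -0.25 for the mitochondrial members, -0.21 for oxygen sensing and -0.10 for the glycolytic enzymes. The roles also differed in brightness, and the part of brightness in these gaps was not tested. Control replicate 2 was the highest array at 4 of 4 mitochondrial members, 5 of 6 of glucose entry, 5 of 6 other HIF targets and 6 of 13 glycolytic enzymes. The 8 tested genes with the widest gap in each direction included no member. The widest was SGO1, a protector of centromere cohesion, at 16.01 and 13.4 in knockdown and 15.4 and 1655 in control.

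**Figure D5:**
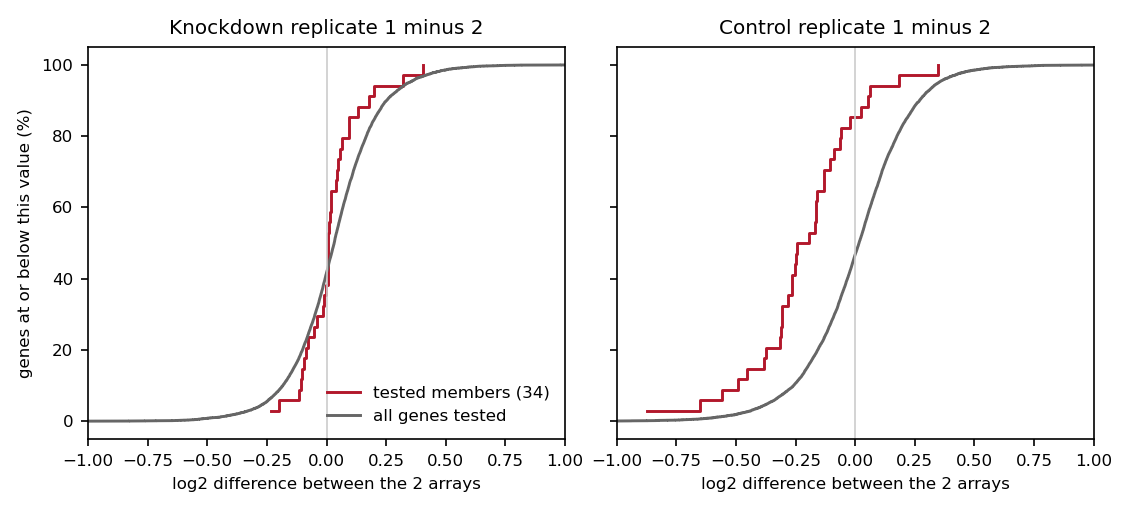
Cumulative share of genes (percent) by the log2 difference between the 2 arrays of a group, for knockdown on the left and control on the right, with the 34 tested members in red and all 12922 genes tested in grey. Between the knockdowns the members have a median near that of all genes (0.01 and 0.03) and a narrower spread. Between the controls they lie to the left of all genes (medians -0.22 and 0.02).

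Calls among the members depended on which array was left out. In the intensity-trend fit without control replicate 1, 8 members were called (BNIP3, HK1, HK2, INSIG2, KDM3A, MXI1, PDK1 and PFKFB4), all lower, beside 2.01% of all genes. Without control replicate 2, 2 members were called (PFKFB3 lower and PKM higher), beside 1.11%. Without knockdown replicate 1 the same 5 members were called as with all arrays, beside 2.92%, and without knockdown replicate 2 no member was called (0 of 34), beside 1.1%. The log2 fold changes without knockdown replicate 2 were -0.35 for BNIP3, -0.37 for PDK1, -0.52 for PFKFB3, -0.34 for INSIG2 and 0.24 for PKM, and PFKFB3 without control replicate 1 gave -0.59. In these fits the lone array of a group is assumed to vary like the other group. The median log2 fold change of the members was -0.22 without control replicate 1 and -0.00113 without control replicate 2.

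Genes of the pathway outside the 36 were taken from lists chosen by function. Of 27 tested further HIF targets, 4 lay above 0 and 23 below, with a median of -0.07. The median was -0.00178 against control replicate 1 alone and -0.18 against control replicate 2 alone. Control replicate 2 exceeded control replicate 1 at 25 of the 27 (median gap -0.15), beside 46.8% of all genes tested. The common-prior fit called 0 of the 27 (3 at an unadjusted p below 0.05, beside 14.1% of all genes), and the intensity-trend fit called 2 lower, beside 1.4%. WSB1, part of a ubiquitin ligase, read 249 and 220 in knockdown and 336 and 328 in control (-0.48, SE 0.11), and its adjusted p was 0.254 (common-prior fit) and 0.00437 (intensity-trend fit). BHLHE40, a transcriptional repressor induced by hypoxia, read 202 and 217 in knockdown and 253 and 279 in control (-0.32, SE 0.11), with adjusted p-values of 0.287 and 0.0419. In WSB1 the controls were nearly equal, with a gap of 0.03. With the mean of all probe sets WSB1 gave -0.24 and BHLHE40 -0.17. LDHA, the lactate dehydrogenase subunit that regenerates NAD for glycolysis, read 2712 and 2768 in knockdown and 2819 and 2804 in control (-0.04) and was nearly level.

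Of 12 tested HIF regulators, 5 lay above 0 and 7 below, with a median gap between controls of -0.00. CUL2, the scaffold of the VHL ligase, was the single call of the intensity-trend fit, at 67.6 and 63.5 in knockdown and 86.9 and 97.3 in control (-0.41, SE 0.11, adjusted p = 0.255 and 0.0443 in the common-prior and intensity-trend fits). With the mean of all probe sets CUL2 gave -0.14. The call of CUL2 stands beside 1.4% of all genes called lower by the intensity-trend fit. ARNT, the partner of HIF1A, read 19.5 and 18.3 in knockdown and 19.9 and 24.5 in control (-0.13), not past either fit. HIF1AN, the asparaginyl hydroxylase that blocks HIF transactivation, read 29.3 and 35.7 in knockdown and 18.5 and 27.2 in control (0.33), not past either fit.

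Among 10 tested other glycolytic isoforms and lactate genes, 6 lay above 0 and 4 below. SLC2A6, a glucose transporter of the lysosome, was called higher by the intensity-trend fit, at 92.4 and 74.99 in knockdown and 54.3 and 58.1 in control (0.46, SE 0.12, adjusted p = 0.255 and 0.0373 in the common-prior and intensity-trend fits). Of 17 tested genes of pyruvate dehydrogenase and the citrate cycle, 8 lay above 0 and 9 below. Neither fit called any, beside 0.0155% of all genes in the common-prior fit and 2.99% in the intensity-trend fit. At an unadjusted p below 0.05 the common-prior fit had 2 of the 17, beside 14.1% of all genes tested. Control replicate 2 exceeded control replicate 1 at 6 of these 17, beside 46.8% of all genes tested. Of 11 tested genes of the pentose phosphate pathway and other branches from glycolysis, 6 lay above 0 and 5 below. PGD, which makes NADPH in the pentose phosphate pathway, was called higher by the intensity-trend fit, at 119 and 130 in knockdown and 75.01 and 79.6 in control (0.59, SE 0.10, adjusted p = 0.252 and 0.00416 in the common-prior and intensity-trend fits). With the mean of its 3 probe sets PGD gave 0.19 (common-prior adjusted p = 0.413). SLC2A6 and PGD were each the 1 call of the intensity-trend fit in their list, beside 1.59% of all genes called higher.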

How the data were processed

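RNA was measured on 4 single-colour Affymetrix arrays, 2 of knockdown and 2 of control cells, labelled by the standard 1-cycle method per the labels' protocols. The deposited table gives, for 54613 probe sets, an intensity on a linear scale from each array. The summary method, scaling and array dates are not given in the sources used here, so batches could not be tested. Array number limits the precision.

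Probe sets were named through the platform annotation, in which 41091 had 1 gene, 1801 several and 11721 none. Of the first kind, 41037 matched the GRCh38.p14 gene table by gene number. For SLC2A3, 2 probe sets shared with SLC2A14 were left out. Values were analysed as log2(intensity + 16), a scale that understates changes of dim probe sets. Array medians spanned 0.07 on this scale and were left uncentred. Each gene took its brightest probe set, and genes below the median of probe set means were left out. The groups were compared by limma 3.58.1 under R 4.3.3, two-sided, with Benjamini-Hochberg adjustment over all 12922 genes and a threshold of 0.05. The fit leaves 2 residual degrees of freedom per gene. The main fit used 1 prior variance, and the intensity-trend fit was the first alternative. The common-prior limma fit was tested on simulated data. The planted changes were larger than that of any member, so recovery of changes of the members' size was not tested. Motif searches used 280-base windows.

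The members and lists were chosen with earlier results of these data known. The genes named are all members, PIERCE2, CIITA, markers and, from 5 pathway lists, genes past either fit. LDHA, ARNT, HIF1AN and SGO1 were added to show levels, the first 3 after their values were seen. Other settings are described in the closing section. Replicate numbers are shared between groups, but deviations of same-numbered arrays correlated at -0.01 across genes, so the numbers were not treated as pairs.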

Additional observations from a re-analysis of the deposited data

How the results depend on the processing

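No member passed limma's common-prior fit in any planned setting with that fit except a pseudocount of 64, where 4 did (BNIP3, INSIG2, PDK1 and PFKFB3), and the intensity-trend fit called 5. Genes called over the whole table, 2 in the common-prior fit, were 387 with the intensity trend, 18 with a stricter filter, 0 with a pseudocount of 1, 406 with a pseudocount of 64, 1 when probe sets were averaged per gene and 1 to 6 with single arrays left out. With the intensity trend and single arrays left out, a choice made after seeing the data, genes and members called were 260 and 8 without control replicate 1, 143 and 2 without control replicate 2, 377 and 5 without knockdown replicate 1, and 142 and 0 without knockdown replicate 2. The member median of -0.14 was -0.0298 with averaged probe sets, -0.12 with quantile normalization, -0.08 with median centring, and between -0.22 (without control replicate 1) and -0.00113 (without control replicate 2) with single arrays left out. The median gap between controls, -0.22, ranged from -0.24 to -0.17 over the other settings. With the replicate block the common-prior fit called 2 genes and 0 members, and it changed no call of a member.

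Of the named genes' log2 fold changes under other settings, 511 had the direction and side of the threshold of the common-prior fit, 21 newly passed it and 25 changed sign. None of those that changed sign was called. With averaged probe sets the value was 0.0873 for EGLN1, -0.0141 for EGLN3, 0.00227 for GAPDH, 0.0809 for PDK3 and 0.0215 for PGK1. Median centring gave 0.0111 for EGLN1 and 0.0434 for GAPDH, and quantile normalization -0.0197 for ENO2 and -0.0163 for TPI1. With single arrays left out the ranges were -0.13 to 0.32 for ALDOC, -0.13 to 0.0376 for EGLN1, -0.39 to 0.49 for EGLN3, -0.0721 to 0.0886 for ENO2, -0.0222 to 0.35 for GPI, -0.0118 to 0.24 for HIF1A, -0.36 to 0.0239 for HK1, -0.49 to 0.00158 for MXI1, -0.33 to 0.0168 for NDRG1, -0.51 to 0.14 for PFKFB4, -0.51 to 0.0420 for SLC2A1, -0.0504 to 0.0784 for TPI1 and -0.24 to 0.0663 for VEGFA. Under quantile normalization 7 of 13 glycolytic enzymes lay above 0, and under median centring 10. The cause of these changes was not tested. Dim members (EGLN3, VHL, NDRG1) sit near the filter, where the log2(intensity + 16) scale understates change.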
